A study of Mus musculus with 18 samples.

Results

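Immunoglobulin variable (V) gene segments are the short coding pieces from which B cells assemble the antigen-binding part of an antibody. A V segment ends in a recombination signal sequence, at which the RAG recombinase cuts so that the segment can be joined to a diversity (D) or joining (J) segment, and the 3 loci that hold them are the heavy-chain locus Igh, the kappa light-chain locus Igk and the lambda light-chain locus Igl. This joining takes place in developing B cells, so embryonic stem cells carry all segments in their unrearranged order. The segments were chosen as all genes of the RefSeq table of GRCm38.p6 with the biotype V segment and a symbol that begins with Ighv, Igkv or Iglv. There were 225 of them among 49595 genes on assembled chromosomes: 120 on chromosome 12 (Igh), 102 on chromosome 6 (Igk) and 3 on chromosome 16 (Igl).

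The cells were mouse embryonic stem cells of the line dTKO, grown in serum and LIF, and their accessible chromatin was mapped by ATAC-seq, an assay based on transposase insertion. All 18 libraries share 1 genotype, Suv39h1fl/fl, Suv39h2-/- and Setdb1fl/fl, and the labels give auxin (100 µg/ml) and dTAG13 (0.5 µM), a pair of agents that trigger degradation of tagged proteins, as the treatment of every library. Libraries were made at 0, 3, 6, 12, 24 and 48 h, 3 biological repeats at each, to follow how chromatin opens once histone H3 lysine 9 methyltransferases are removed, with 0 h as the baseline. The labels name neither the mouse strain nor the tagged proteins, and do not say whether the line is a single clone. The values are 1 merged list of 166066 peaks over all libraries, positions only, so no value here belongs to a time, a library or a replicate, and depth is unknown. Every share below is a count over segments, its 95% Wilson interval covers counting error only, and neighbouring segments are not independent. No test between conditions was possible.

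Marker genes of the labelled cell type, and of B and T cells, were scored first. All 8 embryonic stem cell markers checked, Pou5f1, Nanog and Sox2 among them, had a peak within 500 bp of an annotated end. The same held for 4 of 10 B cell markers and 2 of 8 T cell markers. Over all protein-coding genes the share was 71.4%. That share lies inside the interval of the stem cell markers (67.6 to 100), so their count does not set them apart from other genes. It lies above the intervals of the B cell (16.8 to 68.7) and T cell markers (7.15 to 59.1). Cd79a and Cd79b, the signalling chains of the B cell receptor, and the transcription factor genes Pax5 and Ebf1 had one, whereas Vpreb1, Igll1, Blnk, Rag1 and Rag2 were among those without.

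Nearly all V segments with a peak at an end lay in Igh. A segment was counted when a peak overlapped a window of 500 bp either side of its annotated start or end. By this count 38 of 225 segments had a peak (16.9%, interval 12.6 to 22.3), with 33 of 120 in Igh (27.5%, 20.3 to 36.1), 5 of 102 in Igk (4.90%, 2.11 to 11.0) and 0 of 3 in Igl (0%, 0 to 56.1). Among all protein-coding genes the share was 71.4%. V segments are 211 to 767 bp long, however, and the 4073 other annotated genes of that length range had a peak in 20.4% of cases. The interval over all loci includes that background. The Igh interval just includes it at its lower end, and the Igk interval lies wholly below it. Over the 353 protein-coding genes of that length range the share was 29.2%, inside the Igh interval.

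The segments were next set against windows moved within their own locus. The pair of windows of each segment was placed every 100 bp along the span from the first to the last V segment, and the share of positions with a peak was averaged over the segments. In Igh this share was 9.87%, so that the observed share was 2.79 times higher. In Igk it was 9.69%, and the observed share was 0.506 times that value. In Igl it was 6.10%, against 0 of 3 segments. The ratio in Igh thus lies above 1 and that in Igk below 1, although the upper bound of the Igk interval reaches past its moved windows.

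**Figure D1:**
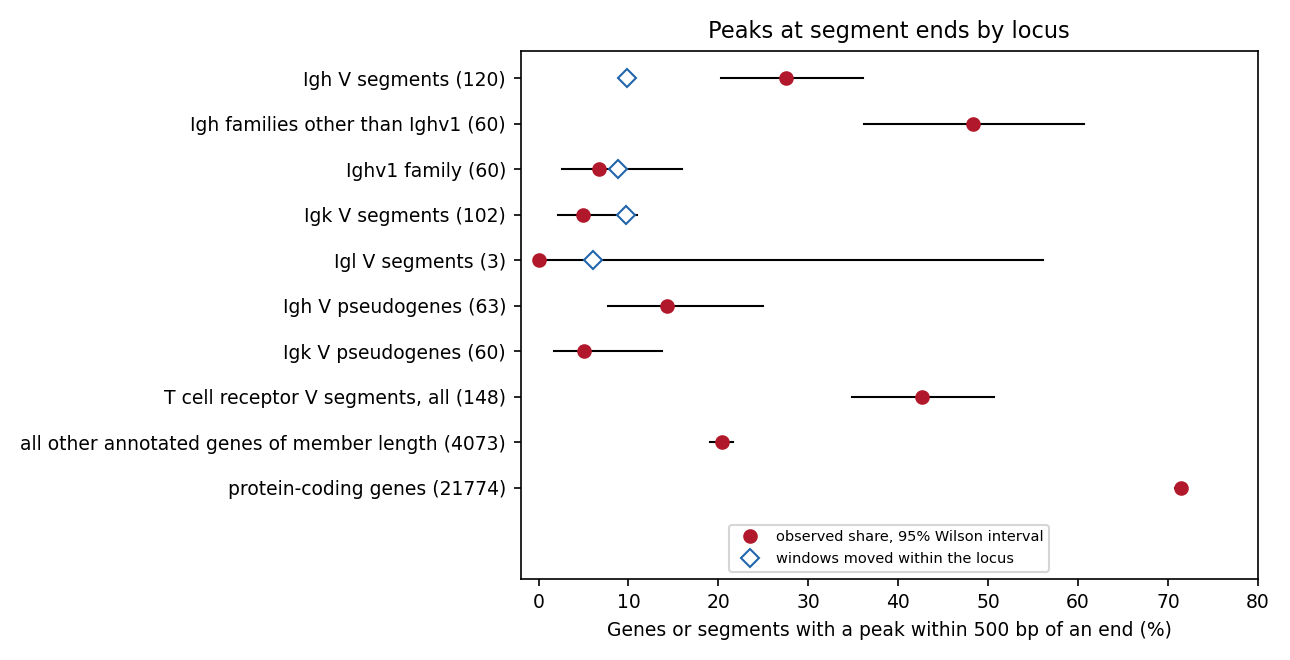
Share of segments or genes with a peak within 500 bp of an annotated end (x axis, percent, red points, bars are 95% Wilson intervals) by set, with the number in each set in brackets. Open diamonds give the share for windows moved within the same locus. The Igh point at 27.5% lies above its diamond at 9.87%, and the Igk point at 4.90% lies below its diamond at 9.69%.

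Within Igh the segments with a peak were gathered at the end of the V array that faces the D and J segments. On GRCm38 the constant, J and D genes of Igh all lie at lower coordinates than the V segments, and as background all mouse Igh V segments are read toward them, so the lower-coordinate end of each is the side of its recombination signal. Counting upward from Ighv5-2 (chromosome 12, 113578504 to 113578990), the segment nearest the D genes, the first 49 segments come before Ighv1-4. That is the first member of the Ighv1 family not annotated as a pseudogene, and it starts at 114487136. Of these 49 segments, 29 had a peak (59.2%), and of the 71 from Ighv1-4 up, 4 had one (5.63%). The boundary at Ighv1-4 was chosen after these values had been seen.

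The longest run of neighbouring segments that all had a peak was 6, from Ighv13-2 to Ighv6-6, and the longest run without any was 33, from Ighv8-5 to Ighv1-77. In slices of 100 kb, the 9 slices nearest the D genes held 2 to 5 open segments each except the sixth, which held 0 of 4. No slice beyond the ninth held more than 1. Each of these 9 slices also held at least 1 segment without a peak.

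**Figure D2:**
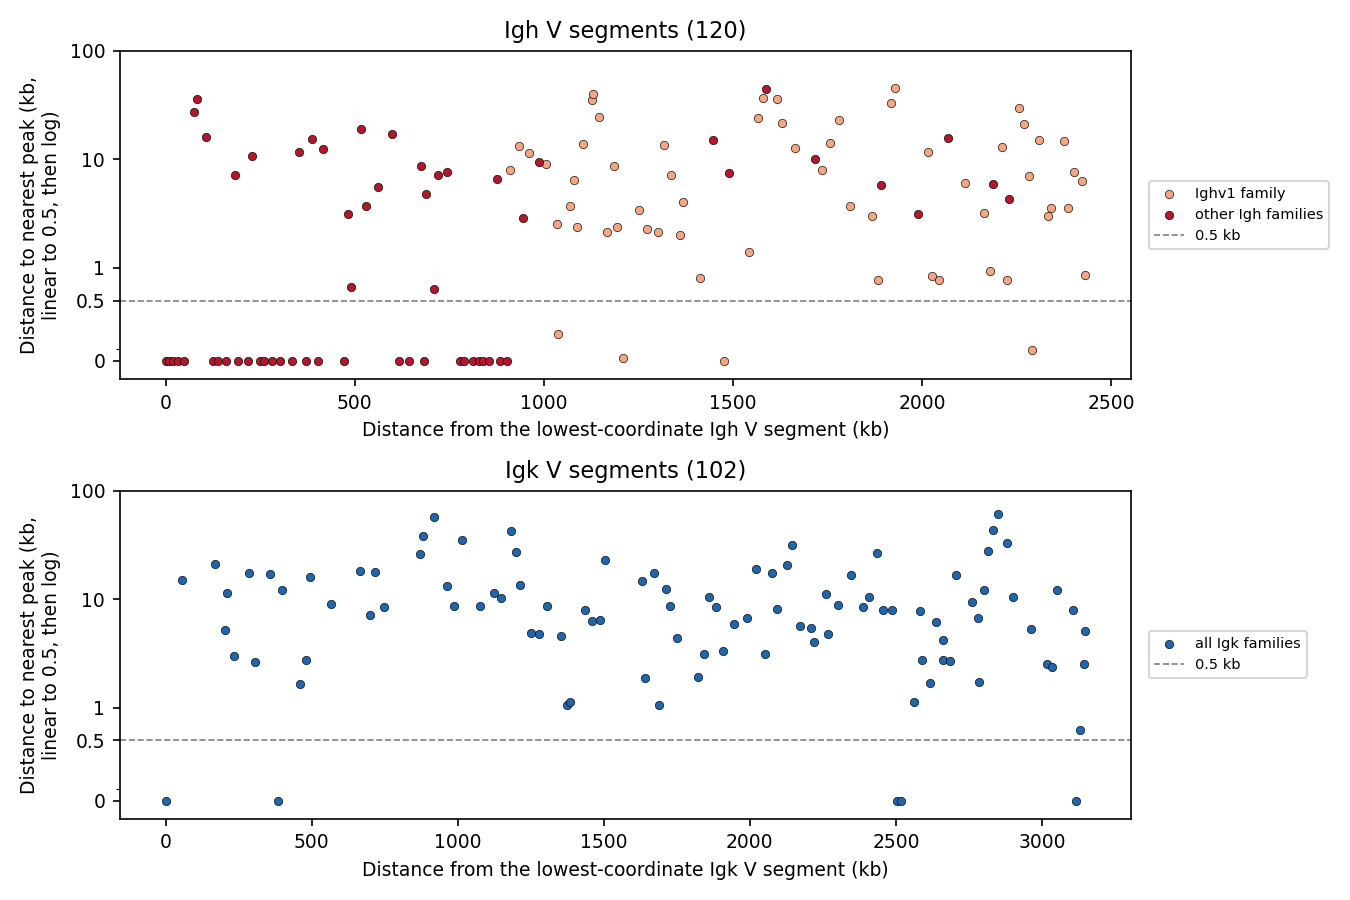
Distance from the nearer end of each V segment to the nearest peak (y axis, kb, linear to 0.5 and logarithmic above) against its distance from the lowest-coordinate V segment of its locus (x axis, kb), for 120 Igh segments (upper panel) and 102 Igk segments (lower panel). In Igh 29 of the 33 points below the dashed line at 0.5 kb lie in the first 909 kb, whereas in Igk the 5 points below it are scattered.

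The number of peaks did not follow the same course. The stretch below Ighv1-4 held 54 peaks over 909 kb, or 59.4 per Mb (exact Poisson interval 44.6 to 77.5), and the stretch above held 75 over 1523 kb, or 49.3 per Mb (38.7 to 61.7), so the intervals of these densities overlap. What differed was where the peaks lay. Of the 54 peaks below Ighv1-4, 28 touched the end windows of a V segment (51.9%), 6 more touched only those of a V pseudogene, and 20 touched no annotated end. Of the 75 peaks above, 4 touched a V segment (5.33%), 2 only a V pseudogene, 1 only another gene, and 68 none. Moved within the lower stretch alone, windows had a peak at 11.6% of positions, which puts the observed 59.2% at 5.08 times that share. Moved within the upper stretch alone they had one at 8.77%, against 5.63% observed, a ratio of 0.642.

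**Figure D3:**
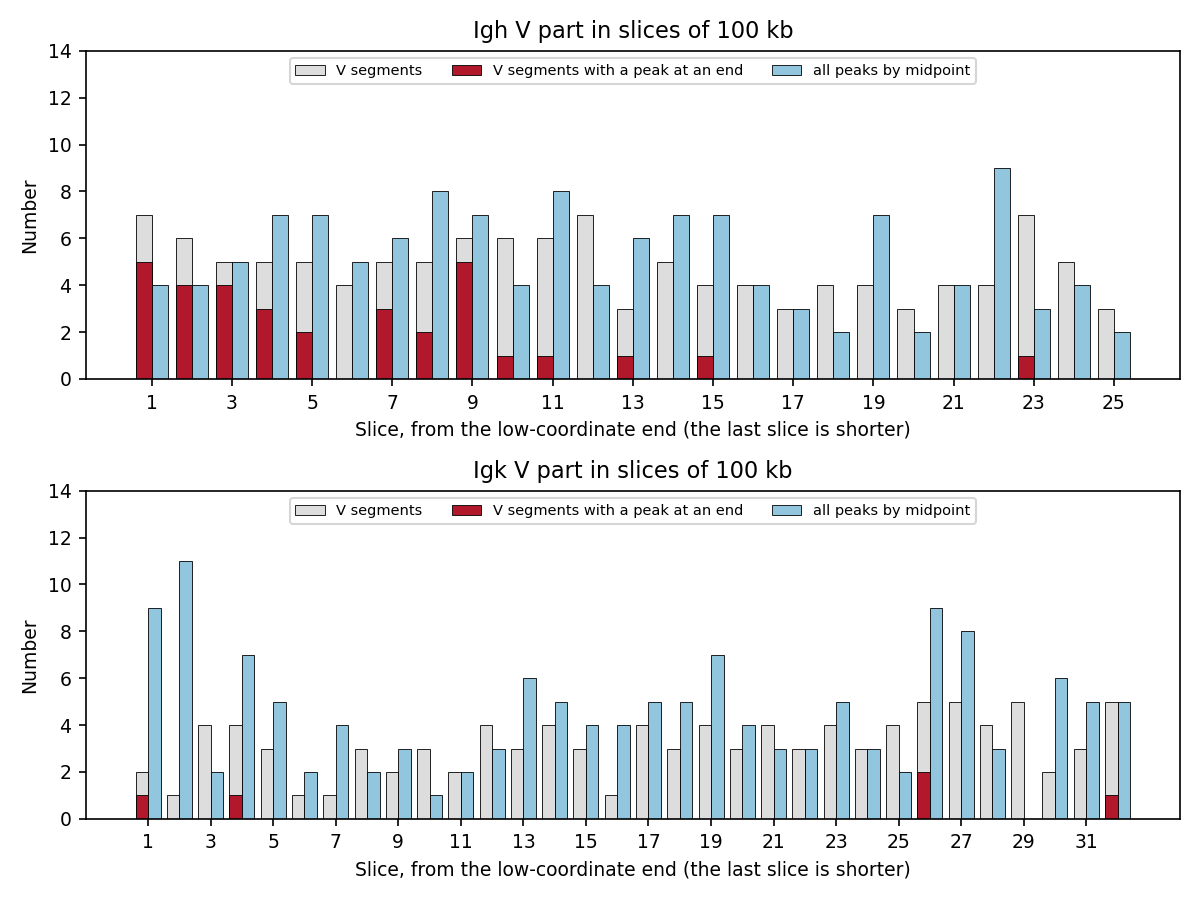
Number of V segments (grey), of V segments with a peak at an end (red, drawn over the grey) and of all peaks by midpoint (blue) in slices of 100 kb from the low-coordinate end of the Igh (upper) and Igk (lower) V arrays. Red bars reach 5 of 7 and 5 of 6 segments in the first and ninth Igh slices, while blue bars range from 2 to 9 over the full Igh slices.

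The segments with a peak were also counted by Igh family. All Ighv5, Ighv2 and Ighv6 segments lie below Ighv1-4, where 29 of 49 segments (59.2%) had a peak. Differences between families were not tested. Families are named by the first number in the symbol and group segments of similar sequence. Of 16 Igh families 12 had at least 1 segment with a peak. In the Ighv5 family 8 of 10 had one, namely Ighv5-2, Ighv5-4, Ighv5-6, Ighv5-12, Ighv5-9-1, Ighv5-15, Ighv5-16 and Ighv5-17. In the Ighv2 family it was 6 of 9, namely Ighv2-2, Ighv2-3, Ighv2-6, Ighv2-9-1, Ighv2-6-8 and Ighv2-9. The segments of both families are intermixed, singly or in short runs, along the array nearest the D genes, from Ighv5-2 to Ighv2-9, which starts 301 kb from the low end.

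Farther along, 4 of 5 Ighv6 segments had a peak (Ighv6-3, Ighv6-4, Ighv6-5 and Ighv6-6). Ighv7-2, Ighv7-4, Ighv11-1 and Ighv11-2 made up their families in full, as did the single segments Ighv4-1 and Ighv12-3. Ighv3-3 and Ighv3-5 were the open members among 6 of Ighv3, and Ighv13-2 was 1 of 2. Not all families of this stretch followed suit. None of the 4 Ighv14 segments and none of the 4 Ighv9 segments had a peak within 500 bp, and their nearest peaks lay at least 3.16 and 3.73 kb away. Ighv16-1 had none either.

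The Ighv8 and Ighv10 families have members on both sides of Ighv1-4. Ighv8-2 and Ighv10-1 lie below it, and both had a peak. The 9 other Ighv8 segments and the other Ighv10 segment lie above it, and none of them had one. With 1 segment of each family below the boundary, these counts are too small to set position against family.

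The Ighv1 family, the largest of the locus, had a peak in 4 of 60 segments (6.67%, 2.62 to 15.9), against 29 of 60 over all other Igh families (48.3%, 36.2 to 60.7). All 60 Ighv1 segments lie in the upper stretch, where 0 of the 11 segments of other families had a peak, so family and position cannot be told apart. The pseudogenes Ighv1-1, Ighv1-2 and Ighv1-3 lie below Ighv1-4, and their nearest peaks were 5.44, 3.98 and 2.38 kb away. Windows moved within the stretch of the family had one at 8.78% of positions. The 4 were Ighv1-12, Ighv1-26, Ighv1-49 and Ighv1-78, with peaks of 531, 218, 256 and 221 bp. For Ighv1-12 the peak was 226 bp below the lower end, and for Ighv1-78 it was 86 bp above the higher end, so neither touched its segment. The peak of Ighv1-26 lay wholly inside the segment, and that of Ighv1-49 covered its higher end. None of the 4 covered a lower-coordinate end.

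In the stretch below Ighv1-4, by contrast, the peaks lay in one place relative to the segment. The peak covered the lower-coordinate end in 28 of the 29 open segments and the higher-coordinate end in 9. It began below the lower end in those 28, by a median of 333 bp over the 29, with a range of -160 to 585 bp, the negative value being Ighv8-2, whose peak lay over the higher end. The peak ended inside the segment in 20 cases and beyond it in 9.

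In Ighv5 the start of the peak lay 301 to 493 bp below the segment and 201 to 294 bp of the segment were covered. In Ighv2 these values were 142 to 349 bp and 159 to 293 bp, and 5 of the 6 peaks also reached past the higher end. In Ighv6 they were 145 to 452 bp and 177 to 268 bp, with no peak reaching the higher end. The most extended start was that of Ighv11-2 (chromosome 12, 114048241 to 114048704), whose peak ran from 114047656 to 114048454.

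Ighv5-2 itself had a peak of 664 bp at 113578041 to 113578704, and Ighv4-1 (113948284 to 113948577) had the widest, 1068 bp at 113947777 to 113948844. The narrowest of the stretch, 268 bp, was at Ighv3-5. The 29 peaks had a median width of 568 bp, and 14 of them were wider than the median of all 166066 peaks, 578 bp. The median was 238 bp for the 4 Ighv1 segments, none of which passed that width. As background, CTCF, a DNA-binding protein that stops loop extrusion, is known to bind beside the recombination signals of many segments of these D-proximal families in B cell precursors. CTCF binding was not measured here.

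**Figure D4:**
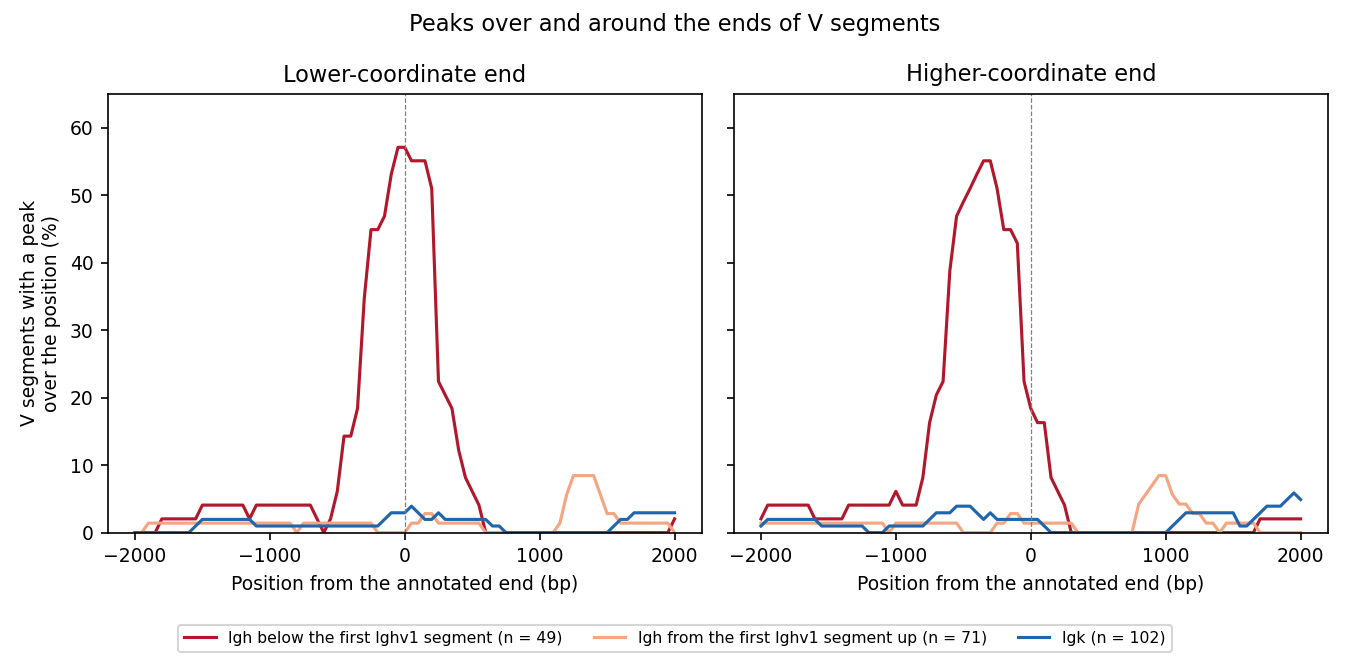
Share of V segments with a peak over each position (y axis, percent) from 2000 bp below to 2000 bp above the lower-coordinate end (left) and the higher-coordinate end (right), in steps of 50 bp. The 49 Igh segments below the first Ighv1 segment reach 57.1% at 50 bp below the lower end, and the other sets stay at or below 8.45% throughout.

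Position by position, 57.1% of the 49 segments had a peak over the base 50 bp below the lower end, and 57.1% had one over the end itself. The share was 18.4% at the higher end, and it was at most 4.08% at positions 1000 bp or more from the lower end. In the stretch from Ighv1-4 up, 0 of 71 segments had a peak over the lower end. That set was highest at 950 bp above the higher end, where 6 segments (8.45%) had a peak.

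The 6 segments are all of the Ighv1 family: Ighv1-62-3, Ighv1-67, Ighv1-69, Ighv1-72, Ighv1-74 and Ighv1-86. Their peaks began 766 to 931 bp above the segment, on the side away from the D genes, and 4 of the 6 were 248 to 276 bp wide. This set of segments was picked from the profile after it was drawn, and no test was made of it.

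All windows of a set were also shifted together by the same distance. In the stretch below Ighv1-4 the share fell from 59.2% in place to a median of 10.2% over 62 shifts of 5 to 20 kb in either direction, with a range of 2.04 to 24.5%. In the upper stretch the value in place was 5.63% and the shifted ones ran from 2.82 to 15.5%, with a median of 8.45%. In Igk the value in place was 4.90%, and these shifts of 5 to 20 kb gave 5.88 to 15.7%, with a median of 10.8%. Shorter shifts in Igk went both ways. They gave less than the value in place at -1.5 kb (2.94%) and -2.0 kb (1.96%), and up to 11.8% at 2.5 and 3.0 kb. The shifted sets overlap each other and are a description, not a test.

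**Figure D5:**
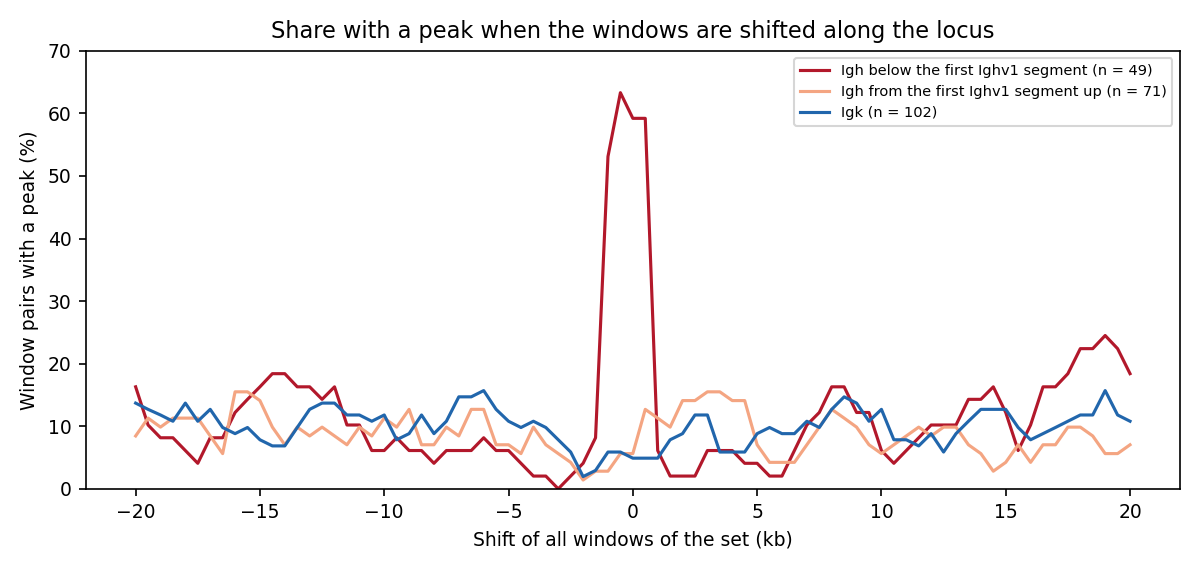
Share of window pairs with a peak (y axis, percent) when the end windows of all segments of a set are shifted together by the distance on the x axis (kb, negative toward lower coordinates). The set below the first Ighv1 segment stands at 59.2% in place and at 2.04 to 24.5% when shifted by 5 kb or more, whereas the upper Igh stretch and Igk show no such rise in place.

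Over all 120 Igh segments, those with a peak included, the median distance to the nearest peak was 3.70 kb, and the largest distances were 45.1 kb for Ighv1-64, 44.1 kb for Ighv8-6 and 39.8 kb for Ighv1-19. The longest stretch of the Igh array without a peak ran for 108 kb, from 115121708 to 115229933, and held Ighv1-52, Ighv1-53, Ighv8-6, Ighv1-54 and Ighv1-55. Even in the lower stretch the split was sharp, since 18 of the 20 segments without a peak lay over 2 kb from one, and their median was 8.18 kb. Ighv1-12 at 226 bp was the farthest segment inside the limit of 500 bp, and Ighv3-6 at 641 bp and Ighv16-1 at 667 bp were the nearest outside it. At the far end of the array, Ighv1-86 (116009659 to 116009954) had its nearest peak 0.867 kb away.

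In Igk the 5 open segments were scattered over the array. They were Igkv2-137 (chromosome 6, 67555636 to 67556216), the lowest-coordinate segment of the array, with a peak of 460 bp, Igkv9-124 with 688 bp, Igkv7-33 with 462 bp, Igkv6-32 with 276 bp and Igkv3-4 with 648 bp. Igkv7-33 and Igkv6-32 are neighbours, and the longest run without a peak was 63 segments, from Igkv9-123 to Igkv8-34. Counting segments only, 5 of 20 families had an open one, and none had more than 1. The largest, Igkv4, had 0 of 28. The peak covered the lower end in 3 cases and the higher end in 2. As background, Igk segments lie in both orientations, and strand is not part of the annotation used, which leaves their recombination side undetermined.

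The Igk array held 143 peaks, or 45.4 per Mb (38.3 to 53.5), against 59.8 over chromosome 6 as a whole and 86.0 and 96.0 in the 1 Mb below and above it. Of these 143 peaks 5 touched a V segment (3.50%) and 131 touched no annotated end. The median distance from a segment to a peak, over all 102 segments, was 8.04 kb. The farthest were Igkv6-15 at 61.5 kb, Igkv20-101-2 at 57.7 kb and Igkv8-16 at 43.0 kb, and the longest stretch without a peak ran for 133 kb, from 68399328 to 68532750. Igkv3-3 was the nearest outside the limit, at 630 bp. Igkv3-1 (70703578 to 70704177), the segment nearest the J genes, was 5.08 kb from a peak. In Igl the distances were 1.17 kb for Iglv1, 2.48 kb for Iglv2 and 4.09 kb for Iglv3, and the span of the 3 segments held 6 peaks.

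Igh as a whole had 129 peaks in its V array, 53.1 per Mb (44.3 to 63.0), beside 61.8 over chromosome 12. The 1 Mb below the array, which includes the D, J and constant genes, had 142 per Mb, and the 1 Mb above had 51.0. The interval of Igh thus includes the density of its chromosome, and that of Igk lies below the density of chromosome 6.

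V pseudogenes are annotated relics of the same families. Of 123, 12 had a peak within 500 bp of an end (9.76%, 5.67 to 16.3). In Igh 9 of 63 had one (14.3%, 7.70 to 25.0) and in Igk 3 of 60 (5.00%, 1.71 to 13.7). By position, 7 of 27 Igh pseudogenes below Ighv1-4 had a peak and 2 of 36 from it up. The 7 were Ighv2-1, Ighv5-19, Ighv7-1, Ighv4-2, Ighv3-2, Ighv7-3 and Ighv15-1, and all but the last belong to families with an open segment. Of the 11 pseudogenes of the Ighv5 family 1 had a peak, against 8 of its 10 segments. Over the whole of Igh the intervals of segments (27.5%) and pseudogenes overlap. Below Ighv1-4 alone, 29 of 49 segments (59.2%) had a peak, against the 7 of 27 pseudogenes. From Ighv1-4 up, 4 of 71 segments (5.63%) had one, against the 2 of 36 pseudogenes. These differences were not tested.

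None of the other coding pieces of the loci had a peak at an end. That held for all 10 Igh D segments, 4 Igh J segments and 8 Igh constant genes, for the 5 J segments and the constant gene of Igk, and for the 3 J segments and 3 constant genes of Igl. V segment windows moved within the V arrays had a peak at 9.87% of positions in Igh, 9.69% in Igk and 6.10% in Igl. With so few pieces, many of them close together, a count of 0 is not read as a feature of these pieces. Peaks did lie between the coding pieces. The interval of 5.78 kb between Ighm, the constant gene of IgM, and Ighj4, which holds the intronic enhancer of the locus, had 1 peak of 1283 bp at 113424050 to 113425332, 1.32 kb from Ighm. Whether it covers the enhancer was not determined.

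The corresponding interval of Igk between Igkj5 and Igkc, 2.51 kb long, had 0 peaks. The 96.3 kb between Ighd1-1 and Ighv5-2, which as background hold a CTCF-bound region that controls V to D joining, had 6 peaks, that of Ighv5-2 among them. The 2 nearest Ighd1-1 were of 391 bp at 113485195 to 113485585 and 556 bp at 113487650 to 113488205. In Igk, the 18.4 kb between Igkv3-1 and Igkj1, which hold the Cer and Sis elements that steer V choice, had 3 peaks, of 927, 206 and 559 bp. Below the constant genes of Igh, the 66.7 kb between Igha and Tmem121, home of the 3′ regulatory region, had 10 peaks, the widest 1259 bp.

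The genes around and inside the loci were scored by the same windows. Zfp386, a zinc finger gene just above the Igh array, was covered at an end by 976 bp of open chromatin, and the peaks of Vipr2 above it and of Tmem121 below the constant genes were 1192 and 1082 bp wide. Adam6a and Adam6b, testis-expressed genes that lie between Ighd1-1 and the V array, had none, at 8.95 and 1.36 kb. Above Igk, Rpia had a peak of 364 bp, and below it Il23r had its nearest at 2.53 kb. Hira, a histone chaperone gene below Igl, shared a peak of 2299 bp with its neighbour Mrpl40, while the olfactory receptor gene Olfr164 above it was 6.73 kb from one.

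T cell receptor V segments are joined by the same recombinase, and 63 of 148 had a peak by the same windows (42.6%, 34.9 to 50.6). The Tra and Trd segments of chromosome 14 had 59 of 119, the Trb segments 3 of 22 and the Trg segments 1 of 7. The interval of all T cell receptor segments overlaps that of Igh (20.3 to 36.1) slightly and lies above that of Igk. The share was 49.6% (40.8 to 58.4) for the Tra and Trd segments, and no test of these differences was made.

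Genes whose products act on these segments were scored by the same windows. Either annotated end counts and strand is not part of the annotation, so a peak in these lists need not lie at a promoter. In the list of V(D)J recombination and end joining, 10 of 15 genes had a peak, among them Xrcc5, Prkdc, Dclre1c (the hairpin-opening nuclease Artemis) and Lig4 (the ligase of end joining). The 5 without were Rag1 and Rag2, the recombinase, Dntt, which adds untemplated nucleotides, and the end-joining genes Xrcc6 and Paxx. Outside the gene lay the nearest peaks of Rag1, 3.19 kb from its end, and of Xrcc6, 0.536 kb from its end. Rag2, Dntt and Paxx each had a peak within the gene, 3.16, 5.50 and 1.05 kb inward of the nearer end.

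Transcription factors of the B lineage had a peak in 13 of 15 cases, with peaks of 1501 bp at Pax5, 719 bp at Ebf1, 1421 bp at Tcf3 and 2106 bp at Ikzf1. The exceptions were Pou2af1, a coactivator at octamer sites of V promoters, at 38.1 kb and Runx1 at 2.11 kb. Proteins that fold the loci or modify their chromatin had one in 9 of 10 cases, Ctcf, Smc1a, Smc3 and Wapl among them, with the cohesin gene Rad21 as the exception at 0.956 kb. Of 12 genes of the B cell receptor and its partners 5 had one: Cd79a, Cd79b, Vpreb3, Btk and Syk. Vpreb1, Vpreb2 and Igll1, which make the surrogate light chain, were 1.14, 1.13 and 1.46 kb from a peak. The share of all protein-coding genes, 71.4%, stands inside the Wilson intervals of the recombination (41.7 to 84.8), transcription factor (62.1 to 96.3) and folding lists (59.6 to 98.2), and above that of the receptor list (19.3 to 68.0).

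V segments of a family are similar in sequence, and the peak list does not say how reads that match several of them were handled. The absence of peaks from segments of large families such as Ighv1 and Igkv4 is therefore uncertain, and its relation to sequence similarity was not tested. Igh V arrays also differ between mouse strains, so a segment of the reference that the line lacks would count as without a peak. The table gives no exons, so leader, V exon and promoter were not told apart.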

How the data were processed

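ATAC-seq libraries (18, 3 at each of 6 times) are represented by 1 list of merged peaks that the authors deposited. It holds positions only, in bp, with no value per sample, and the number of per-sample value columns set aside was 0. Per the submitters' processing notes the tools were MACS2 2.2.7.1, Bowtie2 2.4.2 and Trimmomatic 0.36, and the builds GRCm38 and mm10, whose roles are not stated. The peak threshold, the merging, duplicate removal and the treatment of reads with several matches are not given in the sources used here. Each could change which peaks exist.

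Genes came from a RefSeq table of GRCm38.p6 without strand or sequence, after 348 rows in scaffold coordinates were left out. Peak starts were read as 0-based and are given 1-based. A segment had a peak where at least 1 bp of a peak lay within 500 bp of an annotated end. Distances run from the nearer end to the nearest peak. Moved windows were placed every 100 bp over the span of a locus, with no random draw. Peaks were assigned to slices and spans by midpoint. Shares carry 95% Wilson intervals and densities 95% exact Poisson intervals, which cover counting error only. No test was run, because no value belongs to a library and segments are not replicates.

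The segments and lists were chosen with earlier results of these data known. Named are all V segments with a peak (under 40), in each locus the 3 farthest from a peak, the first and last, those nearest to the limit, the flanking genes, and members of the gene lists with and without peaks; a few of these genes are not reported here. Other segments and V pseudogenes that illustrate a count were named after their values were seen. Promoter sequences were looked for in a RefSeq table for all 225 segments, 0 matched, and none is printed. The scoring was tested on simulated peaks. Alternatives tried were a window of 250 bp, one of 2000 bp, a minimum overlap of 200 bp, only peaks wider than 578 bp, the addition of V pseudogenes, 2 other ways to move windows, and for densities a longer span and assignment by overlap. The split of Igh at Ighv1-4 was added after seeing the data. The software was scipy 1.17.1, pandas 2.3.3, matplotlib 3.10.9 and numpy 2.4.6 under Python 3.11.15.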

Additional observations from a re-analysis of the deposited data

How the results depend on the processing

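Of 74 alternative values, 55 stayed within the interval around the value reported, 18 moved beyond it and 1 turned the direction of a ratio. With windows of 2000 bp, the share of segments with a peak was 26.2% over all loci, 14.7% in Igk and 16.9% in Igh from Ighv1-4 up, and the ratio to moved windows was 1.48 in Igh and 2.25 in Igh below Ighv1-4. In Igl the ratio turned from 0 to 2.22 with these windows, on 1 of 3 segments. With windows of 250 bp the Igh ratio was 3.79, and 6.76 below Ighv1-4, where an overlap of 200 bp gave 6.31 and leaving out moved positions that touch a V segment's own windows gave 9.56. With peaks wider than the median alone, which keeps fewer peaks by construction, the shares were 7.11% over all loci, 11.7% in Igh, 1.96% in Igk, 28.6% below Ighv1-4 and 0% from it up, where the ratio was 0. Peaks per Mb were then 19.7 in Igh, 21.3 in Igk and 11.4 in Igl. Every ratio in Igh stayed above 1 and every ratio in Igk and in Igh from Ighv1-4 up stayed below 1. In Igh from Ighv1-4 up the main ratio rests on 4 of 71 segments, and with windows of 250 bp it was 0.888. The Wilson interval of the Ighv1 family, which holds all 4, was 2.62 to 15.9 and includes its moved share of 8.78%. The ratio of that stretch is therefore not read as a deficit of peaks. The cause of the changes that the settings do not bring by construction was not tested. No paired analysis was possible because no value belongs to a library. Depth per library is unknown, so weak peaks at V segments could have been missed.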
